A study of Mus musculus with 8 samples.

Results

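Microglia of the corpus callosum, the white matter tract that joins the hemispheres, were compared between mice aged 21 months and mice aged 4 months. The comparison was taken from the sample titles and holds 4 of the 8 libraries of the series, 2 at each age. The other 4 libraries are grey matter microglia of the same ages. All mice were wild type, and no other allele or treatment is named in the labels. Cells were pulled out with magnetic beads that bind CD11b, an integrin chain on microglia and other myeloid cells, after myelin had been removed on a Percoll gradient. Any CD11b-bearing cell, such as a neutrophil or a macrophage of the brain's borders, can pass that selection. Nothing states whether the 2 libraries of an age came from separate animals or from pools, so p-values measure the spread between these libraries, which may be technical. The labels name the corpus callosum for the grey matter libraries too, so the regions rest on titles and tissue labels. Strain and sex are not named. In all 8 libraries 4 Y-linked genes summed to 414 to 1221 counts and Xist had 0 to 7 counts, the pattern of male tissue.

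Microglia are the resident macrophages of the brain, and in white matter they clear myelin debris, which is rich in cholesterol. In aged or damaged white matter they are known to enter a state that is marked by lipid-handling and phagocytic genes such as Apoe, Lpl, Spp1 and Itgax, and that depends in part on the lipid receptor TREM2. The markers of resting, homeostatic microglia, such as P2ry12 and Tmem119, fall in many settings where that state appears.

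White matter libraries held 4475574 and 3551010 counts at 4 months and 4241439 and 3506342 at 21 months. Levels are CPM, library-scaled counts, after TMM scaling, which sets libraries to a common level over most genes. The first 4-month library stood apart. Its 17 oligodendrocyte markers reached 74405 CPM in all, and 4.57% of its counts before scaling. The range over the other 7 libraries was 549 to 1364 CPM. Its 19 microglia identity genes, which mark microglia as a cell type, reached 5060 CPM in all, where the range over the other 7 was 19316 to 30352. In that library 2 abundant transcripts took 38.8% of the counts, against 6.78% to 20.7% in the others. It had 20371 genes with a count, fewer than any other library. Its red blood cell markers summed to 6946 CPM, against 602, 736 and 185.5 in the other white matter libraries and up to 26116 in grey matter. In such bulk samples fewer cells of a type and less RNA per cell cannot be told apart. Each result is therefore given with and without that library. Library levels are also given on a second scale, on which each library is divided by the summed counts of its identity genes.

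**Figure D1:**
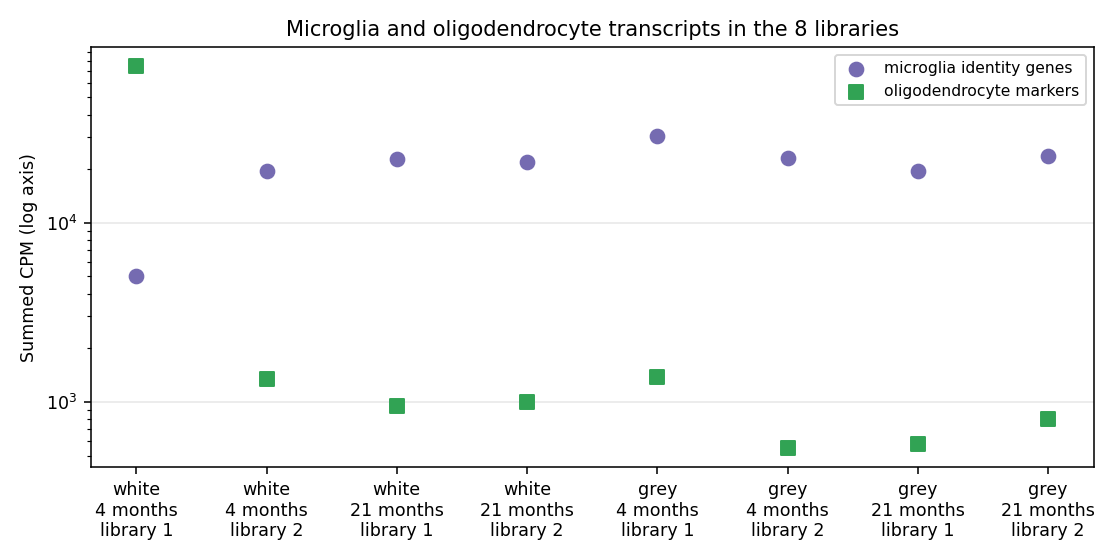
Summed CPM of 19 microglia identity genes (circles) and of 17 oligodendrocyte markers (squares), on a log axis, in each of the 8 libraries. The first 4-month white matter library has 74405 CPM of oligodendrocyte markers and 5060 CPM of identity genes, while the other 7 have at most 1364 and at least 19316.

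Pianp, Gpnmb, Cxcl13, Mmp12 and Spp1 had the widest gaps upward between the ages. Of 16237 genes tested, 3207 (19.8%) were higher in both 21-month libraries than in both 4-month libraries, and 2503 (15.4%) were lower. After division by the identity genes 992 (6.11%) were higher and 6655 (41%) were lower. Set against the second 4-month library alone, both 21-month libraries were higher in 5812 genes (35.8%) and lower in 5458 (33.6%). The 15 genes with the widest gap upward among those with a mean count of at least 50 at 21 months were Pianp, Gpnmb, Cxcl13, Mmp12, Spp1, Itgax, Cst7, Olr1, Lpl, Ahnak2, Apoe, Pdcd1, Tnip3, C3 and Flt1. All 15 were also without overlap on the identity scale. That scale only shifts whole libraries, and the 15 were picked for gaps of at least 2.33 log2 units. Their separation on it is therefore no separate support.

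Spp1, which encodes the secreted phosphoprotein osteopontin, stood at 2.54 and 21.8 CPM at 4 months and at 348 and 280 CPM at 21 months. Itgax, which encodes the integrin CD11c, stood at 4.36 and 14.8 CPM at 4 months and at 218 and 155 at 21 months. Both 21-month libraries lay over 10-fold above the higher 4-month library for these genes. Gpnmb, a transmembrane glycoprotein of lysosome-rich phagocytes, stood at 0.36 and 3.51 CPM at 4 months and at 74.03 and 113 at 21 months. Mmp12, the elastase of macrophages, stood at 0.73 and 4.01 CPM and then at 77.3 and 65.1. In both of these the second 4-month library was the higher of its pair. Pianp, whose protein binds a paired receptor of immune cells, had 0 and 1.25 CPM at 4 months and 43.99 and 40.97 CPM at 21 months.

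Lpl, which splits triglycerides of lipoproteins, stood at 4.36 and 30.4 CPM at 4 months and at 312 and 233 at 21 months. Apoe, the lipid carrier of the brain, stood at 532 and 499.7 CPM at 4 months and at 4468 and 3159 at 21 months. Olr1, a scavenger receptor for oxidised lipoproteins, stood at 1.82 and 10.5 CPM and then at 134.6 and 98.3. Apoe was the 1 gene of these 3 with nearly equal levels in the 4-month libraries, although the identity genes summed to 5060 CPM in the first and to 19316 in the second. Cst7, an inhibitor of cysteine proteases, stood at 1.82 and 5.52 CPM at 4 months and at 74.03 and 58.9 at 21 months. The complement component C3 stood at 4.36 and 15.3 CPM and then at 109.98 and 80.2. Pdcd1, which encodes the checkpoint receptor PD-1, stood at 2.54 and 1.003 CPM and then at 24.6 and 16.6. Each of these genes separated the ages in all 4 libraries. Cxcl13, a chemokine that attracts B cells, had 0 and 0.25 CPM at 4 months, 15.85 and 10.2 at 21 months, and the large scaffold gene Ahnak2 had 0 and 1.003 and then 10.2 and 15.9.

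**Figure D2:**
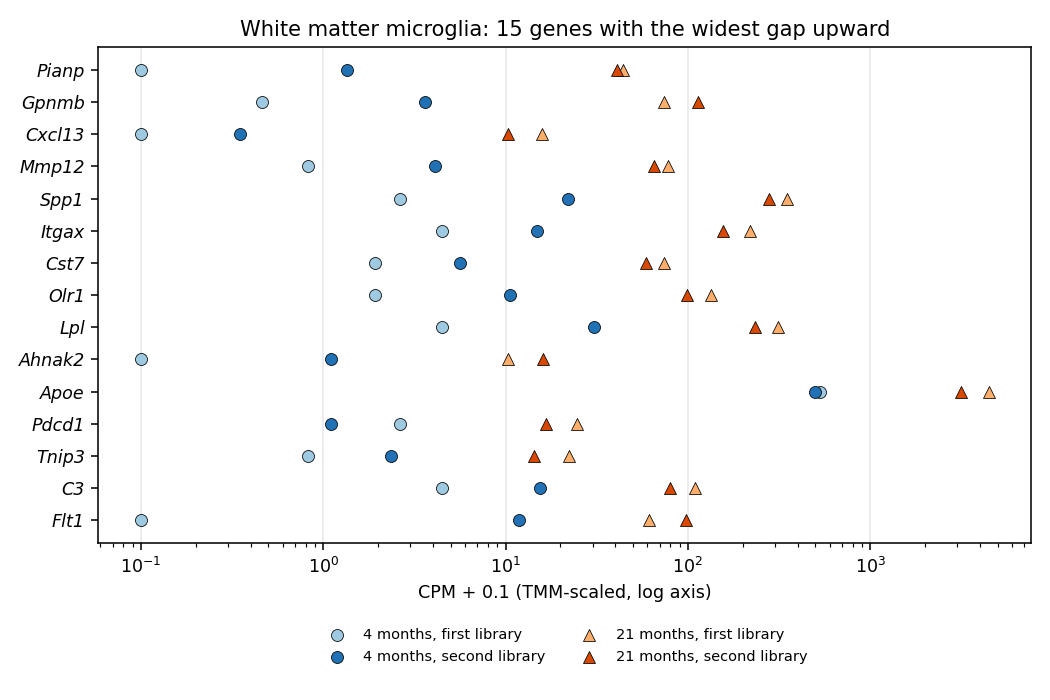
CPM of the 15 genes with the widest gap upward in the 4 white matter libraries, on a log axis with 0.1 added; circles are the 4-month and triangles the 21-month libraries. Both 21-month libraries lie right of both 4-month libraries in every row, and the second 4-month library (dark circle) is usually the higher of the 4-month pair.

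Tests across all genes depended on the first 4-month library. With all 8 libraries, edgeR's quasi-likelihood test called 0 genes higher (0% of 16237) and 0 lower at a Benjamini-Hochberg adjusted p of 0.05. At an unadjusted p of 0.05, 428 genes (2.64%) were higher and 888 (5.47%) lower. limma with voom quality weights called 0. DESeq2 called 56 higher (0.389% of 14387) and 369 lower (2.56%), and of those 369 genes 368 had their highest level of all 8 libraries in the first 4-month library. Of the 56 higher calls, 43 had their lowest level of all 8 there, and 19 were also called without it. Without that library edgeR called 1 gene of 17509 (0.00571%), Spp1, whose log2 level rose by 3.83 ± 0.35 (SE; adjusted p = 0.0403), and 0 lower. At an unadjusted p of 0.05, 478 (2.73%) were then higher and 195 (1.11%) lower. With the replicate number as a block, edgeR called 0 genes both with and without that library, so the call of Spp1 was lost.

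Without the first 4-month library DESeq2 called 21 genes higher (0.113% of 18598) and 1 lower (0.00538%). Only the second library then stood for 4 months and is assumed to vary like the libraries of the other groups. Of the 21, 20 had names other than predicted gene models. In log2 units Spp1 rose by 3.82 ± 0.402 (SE; adjusted p = 3.85e-17), Itgax by 3.63 ± 0.445 (adjusted p = 3.36e-12) and Gpnmb by 4.70 ± 0.709 (adjusted p = 1.52e-07). Pianp rose by 5.05 ± 0.943, Mmp12 by 4.12 ± 0.694, Cst7 by 3.56 ± 0.742, Olr1 by 3.44 ± 0.692 and Lpl by 3.14 ± 0.523. Apoe rose by 2.90 ± 0.412 and C3 by 2.61 ± 0.497. With all 8 libraries the log2 fold change of Apoe on the identity scale was 1.38 (adjusted p = 0.229 in edgeR), against 2.89 with TMM scaling. Clec7a, a receptor for fungal glucans that marks activated microglia, rose by 2.58 ± 0.63 (adjusted p = 0.0371). Cd22, a receptor for sialic acid, rose by 2.32 ± 0.532. Axl, a TAM receptor kinase that helps phagocytes engulf apoptotic cells, rose by 2.01 ± 0.444. Lgals3bp, a secreted binding partner of galectin-3, rose by 1.90 ± 0.342, and Csf1, a survival factor of microglia, by 1.78 ± 0.306.

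Csf1 and the other genes of this paragraph were also called higher, fell outside the rule for named genes and were chosen after their values were seen. The cytoskeletal gene Vim stood at 15.3 and 31.9 CPM at 4 months and at 148 and 161 at 21 months, a rise of 2.25 ± 0.377, and its log2 fold change scaled to the identity genes was 1.59 with all 8 libraries. Sh3pxd2b, an adaptor of podosomes, stood at 4.72 and 11.8 CPM and then at 58.7 and 45.9. The ages did not overlap in Vim and Sh3pxd2b on either scale. Chst2, a sulfotransferase, stood at 27.6 and 6.27 CPM and then at 54.2 and 50.7, and the phospholipase D family member Pld3 at 53.06 and 77.8 and then at 253 and 210.1. Chst2 was higher in the first 4-month library than in the second, the reverse of Vim. Csf1 stood at 163 and 129 CPM and then at 481 and 427. In Chst2, Pld3 and Csf1 the ages did not overlap on the CPM scale but overlapped on the identity scale. On the identity scale their log2 fold changes with all 8 libraries were -0.27, 0.52 and 0.067, in that order.

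The single gene that DESeq2 called lower was Gpr165, an orphan G protein-coupled receptor, which fell by 2.47 ± 0.567 on the log2 scale (adjusted p = 0.0127). It stood at 5.81 and 43.6 CPM at 4 months and at 4.97 and 11.2 CPM at 21 months. Its first 4-month library lay between the 21-month libraries, so the ages overlapped.

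RefSeq promoter windows, from 250 bases before to 50 after a transcription start on build GRCm38.p6, were found for 18 of the 20 named genes that DESeq2 called higher. They were searched on both strands for GAGGAAGT, a binding motif of the myeloid factor PU.1, for TCACGTG, the core of the motif of lysosomal genes, and for TCATGTG, the M-box of the MITF family. No motif of the 3 contains another. GAGGAAGT was found for 3 of the 18 genes and for 4.01% of the 9992 tested genes with a window, TCATGTG for 3 and 2.75%, and TCACGTG for 0 and 6.92%. A gene could have several windows and was counted if any of them held the motif. Over all 12802 windows, 3.34% held GAGGAAGT. The windows of Spp1, Mmp12 and Pianp that hold GAGGAAGT are printed, with the motif in capitals. Each of these genes also had at least 1 window without it, which is not printed. The Spp1 window is chr5:104434861-104435160, the Mmp12 window chr9:7344147-7344446 and the Pianp window chr6:124998360-124998659, all on the plus strand. The capitals begin at -113 from the start in Spp1, at -88 in Mmp12, where the motif is on the minus strand, and at 30 in Pianp. A match is a description of the letters and not of a bound site.
Spp1: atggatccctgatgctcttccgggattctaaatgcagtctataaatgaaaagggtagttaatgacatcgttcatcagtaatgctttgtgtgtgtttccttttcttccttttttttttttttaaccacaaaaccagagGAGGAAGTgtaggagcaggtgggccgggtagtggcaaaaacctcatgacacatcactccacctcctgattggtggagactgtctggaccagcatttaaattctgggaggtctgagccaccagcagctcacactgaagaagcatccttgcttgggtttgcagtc
Mmp12: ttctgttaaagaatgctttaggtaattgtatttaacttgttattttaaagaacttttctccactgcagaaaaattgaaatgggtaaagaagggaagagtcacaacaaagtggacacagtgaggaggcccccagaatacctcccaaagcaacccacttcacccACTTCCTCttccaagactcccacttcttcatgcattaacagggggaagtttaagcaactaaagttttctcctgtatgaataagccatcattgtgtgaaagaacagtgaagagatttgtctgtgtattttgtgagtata
Pianp: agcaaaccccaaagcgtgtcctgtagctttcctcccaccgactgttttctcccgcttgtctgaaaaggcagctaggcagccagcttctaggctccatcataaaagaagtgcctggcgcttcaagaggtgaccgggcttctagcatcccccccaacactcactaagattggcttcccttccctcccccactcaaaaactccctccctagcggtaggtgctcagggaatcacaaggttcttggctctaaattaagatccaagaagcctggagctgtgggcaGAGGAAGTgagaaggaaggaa

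Gene lists were next read by their members. A list is given by how many tested members were higher or lower in both 21-month libraries, beside 19.8% and 15.4% of all genes, and by its median log2 fold change, beside 0.019 for all genes with all 8 libraries and 0.024 without the first 4-month library. The identity-scaled median of all genes was -1.32, and on that scale 6.11% of all genes were higher and 41% lower. Against the second 4-month library alone, 35.8% were higher and 33.6% lower. Of the 19 microglia identity genes themselves, 10 were higher without overlap and 0 lower, and 3 and 7 on the identity scale. Their median was 0.90 with all 8 libraries and 0.12 without the first 4-month library. The 19.8% of all genes is thus not the share for genes that mark microglia. No list had a member called by edgeR with all 8 libraries.

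Disease-associated genes, the list of the state described above, lay mostly higher at 21 months. Of 40 members 35 were higher without overlap, 0 were lower and 5 overlapped. Scaled to the identity genes, 24 were higher and 0 lower, and against the second 4-month library alone 39 were higher and 0 lower. The median log2 fold change was 1.70 with all 8 libraries and 1.26 without the first 4-month library. The 5 that overlapped were Ank, Ccl4, Cd9, Fabp5 and Fth1, and in all but Ccl4 the first 4-month library exceeded the second. These 5, and Igf1, were chosen after their values were seen. The ferritin chain Fth1, for example, stood at 5351 and 827 CPM at 4 months and at 2299 and 1575 at 21 months. Clec7a stood at 8.36 and 29.6 CPM and then at 243 and 117. Axl stood at 12.4 and 80.8 CPM and then at 387 and 277. Lgals3bp stood at 38.9 and 142 CPM and then at 536 and 543. These 3 did not overlap on either scale. The insulin-like growth factor Igf1 stood at 1.45 and 15.3 CPM and then at 62.7 and 64.3.

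Lipid carriage, efflux and storage genes were mixed. Of 27 listed genes 23 were tested, 13 were higher without overlap and 1 lower, and 7 were higher and 5 lower on the identity scale. The median was 0.86 with all 8 libraries and 0.77 without the first 4-month library. Beside Apoe and Lpl, the small lipoprotein gene Apoc1 stood at 0.36 and 0.25 CPM at 4 months and at 2.60 and 4.47 CPM at 21 months. Ch25h, a hydroxylase of cholesterol, stood at 0.36 and 0 CPM and then at 9.46 and 3.48. Growth factor and matrix genes had 18 of 21 tested members higher and 1 lower, and 12 and 1 on the identity scale, with medians of 1.23 and 0.95. Among them the matrix protein Postn stood at 1.45 and 8.03 CPM and then at 45.2 and 41.2.

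Uptake receptors and bridging proteins had 19 of 26 tested members higher and 1 lower, and 9 and 3 on the identity scale. Their median was 1.08 with all 8 libraries and 0.47 without the first 4-month library. Cd22 stood at 4.72 and 12.8 CPM at 4 months and at 69.5 and 61.1 at 21 months. Complement genes had 12 of 19 higher and 1 lower, and 8 and 3 on the identity scale, with medians of 1.11 and 0.65. The protease gene C1ra and the inhibitor gene Serping1 stood at 0 and 0.25, and at 0.36 and 3.51 CPM, at 4 months. At 21 months they stood at 1.18 and 2.23, and at 9.22 and 18.1. Both were low in every library beside C3.

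Lysosome genes had 25 of 44 tested members higher and 2 lower. On the identity scale 10 were higher and 15 lower, beside 6.11% and 41% of all genes. Their median was 0.66 with all 8 libraries and 0.35 without the first 4-month library. The aspartic protease Ctsd stood at 1164 and 3585 CPM at 4 months and at 6785 and 7202 at 21 months. The membrane protein Cd68 stood at 145 and 349.9 CPM and then at 836 and 655. Atp6v0d2, a proton pump subunit, stood at 0 and 0.25 CPM and then at 4.97 and 4.97. These 3 were higher at 21 months on both scales.

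Antigen presentation and interferon genes stood lower in both 4-month libraries on the CPM scale. Of 40 tested interferon-stimulated genes 33 were higher at 21 months and 0 lower, and of 18 MHC class I genes 16 were higher and 0 lower. Scaled to the identity genes, 20 and 8 were higher, and 3 and 1 lower. Their medians were 1.39 and 1.19 with all 8 libraries and 0.73 and 0.59 without the first 4-month library. The interferon list summed to 8.30% and 5.12% of the identity genes at 4 months and to 7.91% and 7.93% at 21 months. In that ratio the first 4-month library was the highest of the 4 and the second the lowest, so the ages overlapped. The class I list summed to 25.835% and 18.4% at 4 months and to 29.9% and 25.779% at 21 months, so the ages overlapped there too.

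B2m, the light chain of class I molecules, stood at 717 and 1569 CPM at 4 months and at 3736 and 3074 at 21 months, and its log2 fold change was 1.57 with all 8 libraries (adjusted p = 0.615 in edgeR) and 1.11 without the first. Scaled to the identity genes, B2m overlapped, with a log2 fold change of 0.45. Cxcl10, an interferon-induced chemokine, stood at 7.63 and 27.1 CPM and then at 75.2 and 85.4. Usp18, a brake on interferon signalling, stood at 0.36 and 1.51 CPM and then at 5.20 and 7.20. Both were without overlap on either scale. Iigp1, an interferon-induced GTPase outside that list, ran the other way, at 21.4 and 23.6 CPM at 4 months and at 4.49 and 2.23 CPM at 21 months. MHC class II genes had 7 of 11 members higher and 0 lower, and 3 and 0 on the identity scale, with medians of 0.99 and 0.60. The invariant chain gene Cd74 stood at 154 and 264 CPM and then at 604 and 337. Reads of the near-identical H2 and interferon gene families cannot be assigned with certainty.

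Cytokine and NF-kB feedback genes had 19 of 30 tested members higher and 0 lower, and 9 and 3 on the identity scale, with medians of 0.93 and 0.28. Il1b stood at 51.6 and 149.8 CPM at 4 months and at 489 and 359 at 21 months. Il1rn, which encodes the antagonist of the IL-1 receptor, stood at 10.2 and 16.6 CPM and then at 101 and 46.9. Ptgs2, an enzyme of prostaglandin synthesis, stood at 13.8 and 32.1 CPM and then at 113.8 and 104.8. The 3 genes were without overlap on both scales. Chemokine genes had 10 of 20 higher and 1 lower, with medians of 1.09 and 0.53, and checkpoint genes 10 of 16 and 1, with medians of 1.15 and 0.42. The counts on the identity scale were 7 and 2, and 9 and 4. Cd274, which encodes the PD-1 ligand, stood at 14.5 and 45.4 CPM at 4 months and at 131 and 127 at 21 months.

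**Figure D3:**
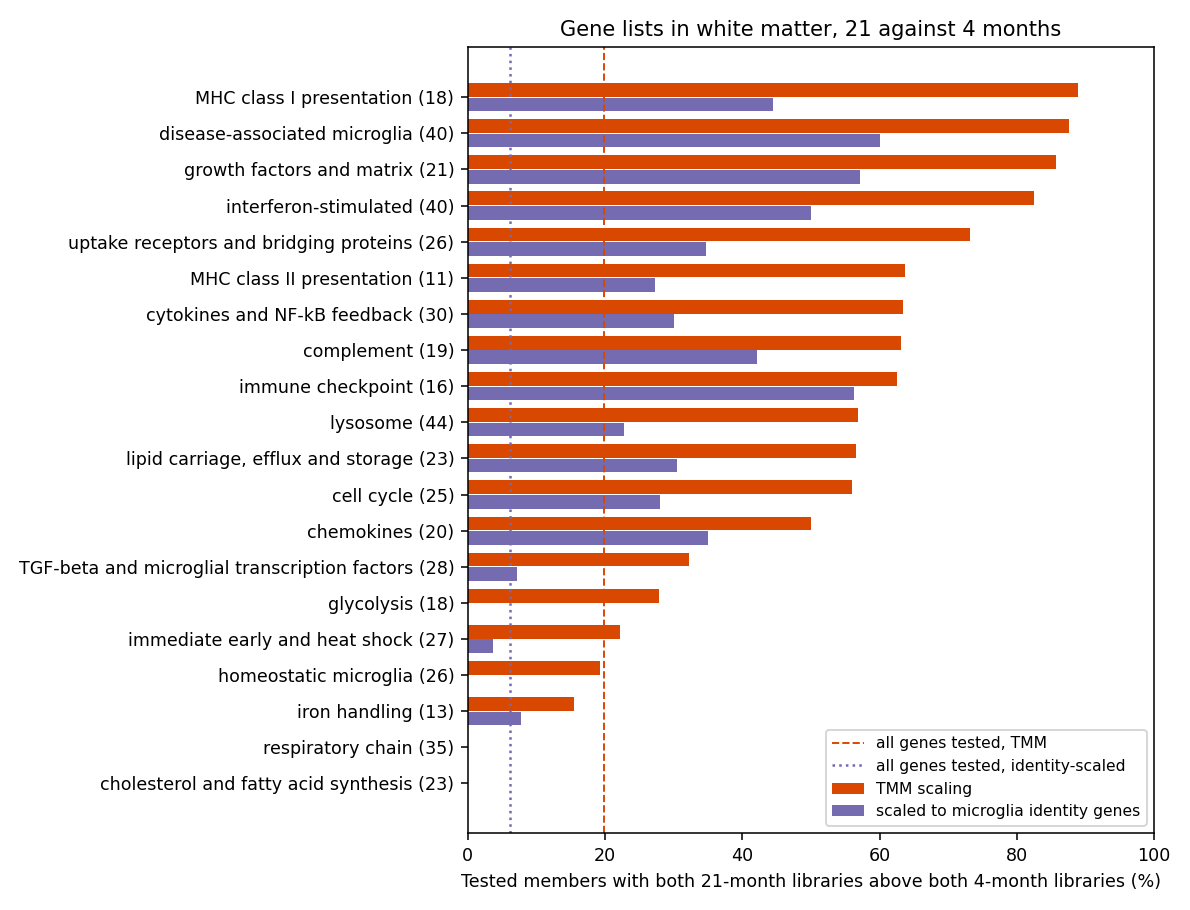
Share of the tested members of each gene list (number in parentheses) that were higher in both 21-month than in both 4-month white matter libraries, under TMM scaling (orange) and scaled to the microglia identity genes (purple). The lines mark the same share over all genes, 19.8% and 6.11%; the disease-associated list reaches 35 of 40 and 24 of 40, and the homeostatic list 5 of 26 and 0.

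Homeostatic microglia genes were higher at 21 months about as often as all genes. Of 26 members 5 were higher without overlap, 1 was lower and 20 overlapped, beside 19.8% higher and 15.4% lower of all genes. Scaled to the identity genes, 0 were higher and 14 lower, beside 6.11% and 41% of all genes. Set against the second 4-month library alone, 5 were higher and 15 lower, beside 35.8% and 33.6%. Gpr165, the gene that DESeq2 called lower without the first 4-month library, is a member of this list. The list summed to 7529 and 26917 CPM at 4 months and to 27076 and 26445 at 21 months, so the first 4-month library alone was low. The median log2 fold change was 0.56 with all 8 libraries and -0.18 without the first. The purine receptor P2ry12 stood at 388 and 1429 CPM at 4 months and at 983 and 1092 at 21 months. Tmem119, a surface marker of microglia, stood at 255 and 1082 CPM and then at 748 and 844. Cx3cr1, the fractalkine receptor, stood at 426 and 1814 CPM and then at 1832 and 1616. In P2ry12 and Tmem119 both 21-month libraries lay between the 4-month libraries. Their log2 fold changes were 0.19 and 0.25 with all 8 libraries and -0.48 and -0.46 without the first (adjusted p = 1 for each in edgeR without it), and for Cx3cr1 0.62 and -0.09. TGF-beta and microglial transcription factor genes had 9 of 28 higher and 1 lower, with medians of 0.57 and -0.09. On the identity scale 2 were higher and 12 lower, beside 6.11% and 41% of all genes. Against the second 4-month library alone 9 were higher and 12 lower, beside 35.8% and 33.6%.

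Markers of other cell types were then compared. All 17 oligodendrocyte markers were tested, and 16 were lower at 21 months. Mbp, a structural protein of myelin, stood at 8228 and 136 CPM at 4 months and at 96.97 and 83.2 at 21 months. The median of the list was -6.65 with all 8 libraries and -1.49 without the first 4-month library, and its sum in the second 4-month library was 1329 CPM against 943 and 996 at 21 months. Of 14 genes among those with the widest gap downward, Cldn11, Mobp, Fa2h, Erbb3 and St18 belong to the oligodendrocyte lineage. Elavl3, Dscaml1, Lrrc4b, Srcin1, Sorcs1, Adgrb1 and Gria4 have known roles in neurons or at synapses, and Edil3 and Iigp1 complete the 14. The fixed neuron markers, of which 4 of 14 were tested, summed to 25.8 and 14.5 CPM at 4 months and to 10.9 and 31.04 at 21 months. Oligodendrocyte precursor markers summed to 2285 and 50.9 CPM and then to 61.02 and 107. Cldn11, a tight junction protein of myelin, stood at 2142 and 21.3 CPM at 4 months and at 3.07 and 2.73 at 21 months. In 13 of the 14 the first 4-month library was the highest of the 4, and Iigp1 was the exception. None was called by edgeR, and Iigp1 had a log2 fold change of -2.80 without the first 4-month library (adjusted p = 1).

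**Figure D4:**
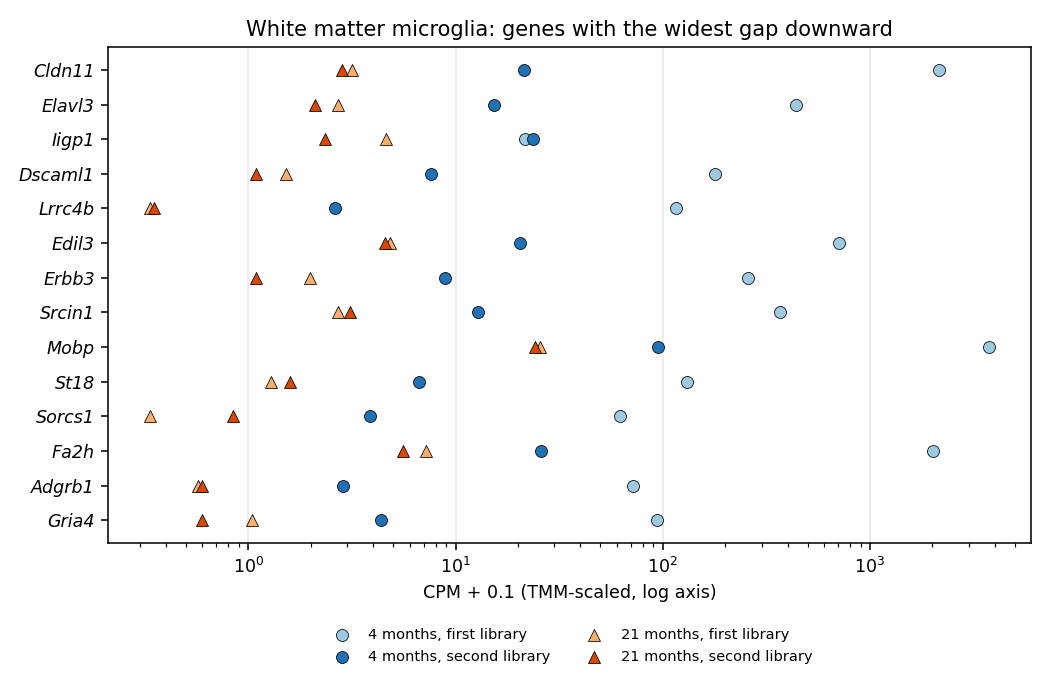
CPM of 14 genes among those with the widest gap downward in the 4 white matter libraries, on a log axis with 0.1 added; circles are the 4-month and triangles the 21-month libraries. The first 4-month library (light circle) is far to the right in 13 rows, and in Iigp1 the 4-month libraries lie close together at 21.4 and 23.6 CPM.

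Vascular markers were higher at 21 months in part. The 11 pericyte and smooth muscle markers summed to 13.4 and 620 CPM at 4 months and to 795 and 1472 at 21 months, and 9 were without overlap. The 14 endothelial markers summed to 21.4 and 79.02 CPM and then to 96.5 and 279, with 5 without overlap. Flt1, a receptor for vascular growth factors and one of the 15 genes named above, stood at 0 and 11.8 CPM and then at 61.3 and 97.8. The part of vascular RNA in the levels of Flt1 and Postn was not tested. Ependymal and choroid plexus markers summed to 5486 and 7273 CPM at 4 months and to 401 and 12035 at 21 months. They followed single libraries rather than age, and Ttr, the transthyretin gene of the choroid plexus, stood at 1974, 5269, 287 and 9006 CPM in that order. Neutrophil markers summed to 396 and 1131 CPM and then to 1003 and 558, monocyte markers to 57.8 and 187 and then to 234 and 192, and border-associated macrophage markers to 99.9 and 633 and then to 371 and 504. The ages overlapped in the neutrophil and border-associated macrophage sums. Without the first 4-month library the neutrophil list had a median log2 fold change of -1.41. In 13 of its 14 members both 21-month libraries were below the second 4-month library, beside 33.6% of all genes. On the identity scale 11 of the 14 were lower, beside 41% of all genes. Csf3r, a growth factor receptor of neutrophils and the most abundant member, stood at 157 and 550.1 CPM at 4 months and at 674 and 473 at 21 months. Csf3r was thus the member that went against the list, and it made up most of the neutrophil sums at 21 months. S100a9, another abundant member, stood at 90.5 and 168 CPM and then at 109 and 32.03. Both of its 21-month libraries were below the second 4-month library. The monocyte sums did not overlap, but Fn1, the fibronectin gene, made up most of them at 21 months, at 7.27 and 45.4 CPM and then at 128 and 139. The median of the monocyte list was -0.42 with all 8 libraries and -0.47 without the first, and 7 of 12 tested members were below the second 4-month library. T and natural killer cell markers summed to 22.6 to 29.3 CPM in the 4 libraries. B cell markers summed to 103 and 315 CPM at 4 months and to 459 and 433 at 21 months, and 6 of 8 tested were higher without overlap, Cd22 among them. Their median was 1.66 with all 8 libraries and 1.04 without the first. The antibody light chain gene Igkc stood at 1.45 and 11.5 CPM and then at 33.6 and 28.1, while the B cell receptor gene Cd79a stayed below 1 CPM in each library and Ms4a1 was at 0. The part of B cell RNA in the levels of Cd22 and Cxcl13 was not tested.

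The changes were last compared with those of grey matter, whose libraries share no sample with the white matter comparison. Apoe stood at 521 and 262 CPM in 4-month and at 272 and 247 CPM in 21-month grey matter. Itgax stood at 14.8 and 13.5 CPM there and then at 19.6 and 27.1, and Spp1 at 2.79 and 1.83 and then at 4.95 and 4.47. In 21-month grey matter all 3 genes lay far below their 21-month white matter levels. The test of the difference between the regional changes called 0 genes in edgeR with all 8 libraries, where 455 (2.8%) had an unadjusted p under 0.05, and 0 once the first 4-month library was left out, where 507 (2.9%) did. limma with voom quality weights called 0. DESeq2 called 39 (0.487% of 8015) with all 8 libraries and 2 (0.00617% of 32431) without the first. These 2 were Apoe, whose change was larger in white matter by 3.47 ± 0.532 on the log2 scale (adjusted p = 2.23e-06), and Itgax, by 2.90 ± 0.574 (adjusted p = 0.00713).

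**Figure D5:**
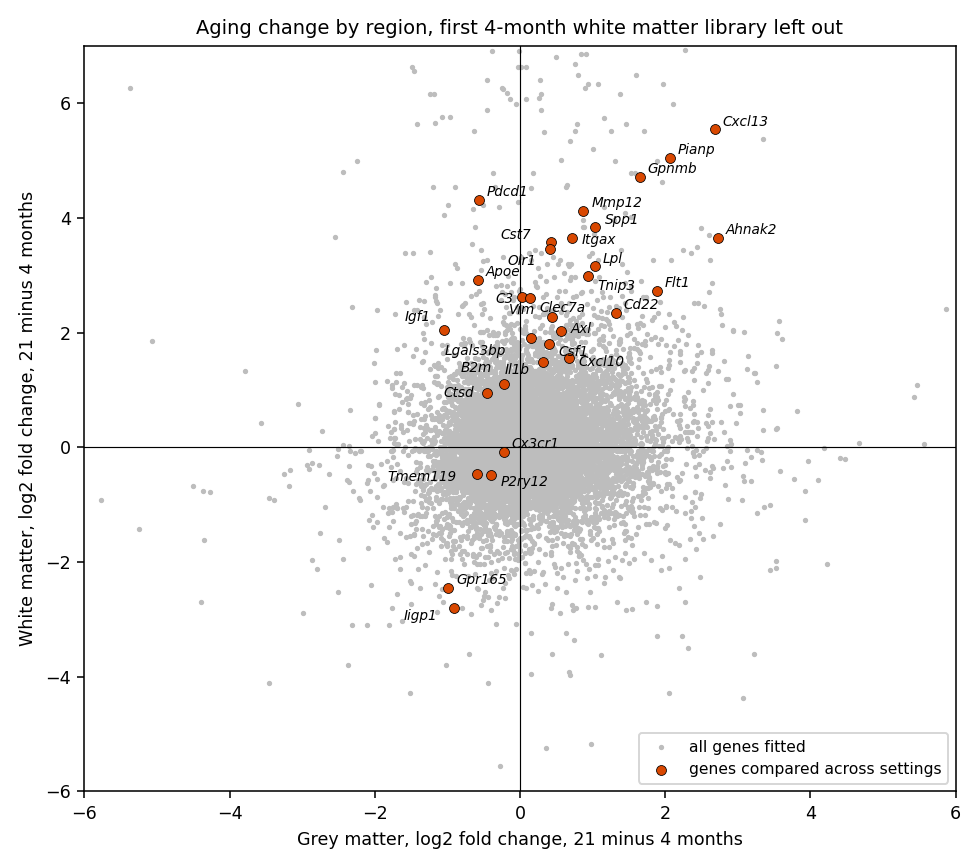
Log2 fold change from 4 to 21 months in grey matter (horizontal) and white matter (vertical), each point a gene, from the edgeR fit that leaves out the first 4-month library; 31 of 16235 genes lie outside the axes. The orange points are genes compared across settings, and Apoe, Itgax, Spp1 and Gpnmb lie far above the horizontal line at 2.92, 3.65, 3.83 and 4.71.

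The disease-associated list had a median change of 0.0062 in grey matter, and its median difference, white minus grey, was 1.75 with all 8 libraries and 1.35 once the first 4-month library was left out. Over all genes that median was -0.0052 and 0.032. The interferon list had 0.16 in grey matter and differences of 1.08 and 0.65, and the homeostatic list -0.29 and differences of 0.75 and 0.060. Pericyte and smooth muscle markers had a median of 1.38 in grey matter, and their difference was 0.30 with all 8 libraries and -0.69 without the first. The median change of these vascular markers was above 0 in both regions, and that of the disease-associated list was near 0 in grey matter. Of the vascular markers, Myh11 stood at 1.92 and 201 CPM in 4-month grey matter and at 130 and 160 at 21 months. Rgs5 stood at 63.7 and 376 CPM there and then at 444 and 526. For both genes the first 4-month grey matter library was the lowest in grey matter, and the ages overlapped in Myh11.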

How the data were processed

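The authors deposited each estimated count per gene, not normalized, for 51810 gene names. The submitters' processing notes name Partek and DESeq2, with no version. How reads were aligned, to which build, and whether strand was used is not given in the sources used here; reads of overlapping or near-identical genes cannot be assigned. Values were rounded to whole numbers here. Libraries held 3273258 to 6315782 counts, which leaves genes of a few CPM with few counts.

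Genes were kept with filterByExpr and 4 group means were fitted to all 8 libraries with edgeR 4.0.16 (R 4.3.3; TMM, robust quasi-likelihood, 4 residual degrees of freedom). 16237 genes were tested, and 17509 when the first 4-month library was left out. Standard errors were derived from the F statistic. DESeq2 1.42.0 and limma 3.58.1 were alternatives. The code was tested on simulated data. A log CPM prior count of 2 was used. With 2 libraries against 2, no exact permutation test (two-sided) can give a p below 0.333.

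Named genes were the 15 with the widest gap between ages in each direction (mean count at least 50), genes called by edgeR, up to 5 a direction called by DESeq2 without that library, up to 4 members of each list by gap, the 2 most abundant markers of each cell type, and 10 fixed genes (P2ry12, Tmem119, Cx3cr1, Lpl, Axl, Spp1, Itgax, Clec7a, Cst7, Apoe). Some genes that meet the rule are not reported here. Others were chosen after their values were seen. The comparison, lists and rules were chosen with earlier results of these data known.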

Additional observations from a re-analysis of the deposited data

Results flagged for a closer look

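Igf1, a growth factor gene, moved in opposite directions in the regions: both 21-month libraries were above both 4-month libraries in white matter (62.7 and 64.3 against 1.45 and 15.3 CPM) and below both in grey matter (4.75 and 5.30 against 12.7 and 8.23 CPM). The difference between the regional changes was 3.95 on the log2 scale with all 8 libraries and did not pass in edgeR's test of it (adjusted p = 1, and adjusted p = 1 once the first 4-month library was left out). It was 3.09 without that library.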

How the results depend on the processing

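With all 8 libraries edgeR called 0 genes higher, 0 lower and 0 for the age by region difference, and so did limma with voom, RLE scaling, library size only, scaling to identity genes, leaving out 2 abundant transcripts, a filter of 10 counts in 4 libraries, and the replicate block; white matter libraries alone called 0 in each direction. DESeq2 called 56, 369 and 39, and edgeR with no filter on low counts 171, 792 and 470; the cause was not tested. Leaving out 1 library gave 0 to 2303 higher, 0 to 2188 lower and 0 to 2422 for the difference. The upper values all came from dropping the second 4-month library, which leaves the one rich in oligodendrocyte transcripts to stand for its age. Without the first, edgeR called 1 higher gene with TMM or RLE scaling and 0 with the replicate block, and DESeq2 called 21 higher, 1 lower and 2 for the difference. Deviations of same-numbered libraries correlated across genes at -0.025 between the white matter ages, 0.42 between white and grey matter at 4 months and 0.056 at 21 months. Over all 6 pairs of groups they ran from -0.14 to 0.42, and no label says what a number marks, so the numbers were not taken to pair the libraries. Genes higher without overlap numbered 992 when scaled to identity genes and 5200 to 8334 with 1 white matter library left out, against 3207. Genes lower without overlap numbered 6655 when scaled to identity genes, 1570 with library size only and 4570 to 7302 with 1 left out, against 2503. Fewer libraries make overlap rarer by construction.

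Of 646 refitted log2 fold changes, 536 kept their direction and side of the threshold, 94 passed it in the same direction and 16 changed sign. P2ry12 was -0.69 scaled to identity genes, and without the first 4-month library -0.48 with TMM, -0.49 with DESeq2, -0.49 with RLE and -0.50 with the replicate block. In the same order Tmem119 was -0.57, -0.46, -0.47, -0.47 and -0.43, and Cx3cr1 -0.20, -0.086, -0.10, -0.10 and -0.11. Over the fits that leave out 1 library P2ry12 ran from -0.48 to 1.44, Tmem119 from -0.46 to 1.67, Cx3cr1 from -0.086 to 2.04 and Gpr165 from -2.45 to 0.49, with the second 4-month library left out at the upper ends. The cause was not tested. Apoe, Itgax, Spp1, Gpnmb, Lpl and Cst7 were above 0 under every setting that gave them a value. All of these genes were picked for wide gaps upward between the same white matter libraries. Their constant sign is therefore no separate support.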

Other observations

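Cholesterol and fatty acid synthesis genes had 0 of 23 members higher and 7 lower, with a median log2 fold change of -1.38, and 0.053 without that library. The desaturase gene Scd2 stood at 7533 CPM in that library and at 203 in its partner, and the list summed to 10581 and 729 CPM at 4 months and to 702 and 782 at 21 months. Respiratory chain genes had 0 of 35 higher and 2 lower, with medians of -0.72 and 0.23.

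Cell cycle genes had 14 of 25 tested members higher at 21 months and 2 lower, with medians of 0.98 and 0.72. Cenpf, a kinetochore gene, stood at 1.09 and 4.01 CPM at 4 months and at 9.93 and 15.1 at 21 months, and Cenpe at 1.82 and 2.51 and then at 7.10 and 10.7. The list summed to 518 and 180 CPM at 4 months and to 264 and 264 at 21 months, so the sums overlapped. Glycolysis genes had 5 of 18 higher and 0 lower, and 0 and 4 on the identity scale, beside 6.11% and 41% of all genes. Pkm stood at 103 and 86.04 CPM and then at 148 and 159.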
